A study of Mus musculus with 6 samples.

Results

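Long noncoding RNAs that stay in the nucleus or come from imprinted loci were followed across sorted cells of the mouse colon. The list named 8 genes, Malat1, Neat1, Meg3, Lncpint, Miat, Rian, Gas5 and H19, and every probe set (a group of short array probes for 1 transcript region) whose only gene symbol was 1 of these names was taken, each on its own. That gave 31 of 34945 probe sets with 1 symbol, for 7 of the 8 genes among 18193 genes in all. Malat1 had 7 probe sets, Neat1 2, Meg3 11, Lncpint 1, Miat 2, Rian 4 and Gas5 4. H19 had 0 of its own: its 1 probe set also carried the symbol of Mir675, the microRNA gene inside it, and was left out, as was 1 further Gas5 probe set shared with a small RNA gene. The names were drawn up with earlier results of the comparison between the labels known, so the values and differences below describe the members and are not tests of them.

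All mice carried EGFP in the Mapt gene (strain Mapttm1(EGFP)Klt/J), which encodes the axonal protein tau, so that the Mapt promoter drives the fluorescent protein. Their celiac ganglion had been injected with fluorescent cholera toxin subunit B, a retrograde tracer, 3 to 4 days before death, and this holds for both groups. Cells of the myenteric plexus (the ganglia that drive gut motility) of the colon were sorted into 3 libraries labelled EGFP-positive (described as neurons) and 3 labelled EGFP-negative, each pooled from 2, 4 or 6 mice. Values measure the spread between these pools, and the labels do not say which pool held how many mice. RNA was measured on Affymetrix Mouse Genome 430 2.0 arrays, and all values are the deposited log2 expression values, listed for replicates 1, 2 and 3 in that order.

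Malat1 is a very abundant nuclear RNA of the speckles, the compartments that store splicing factors, and Neat1, its neighbour on the same chromosome, is the scaffold around which paraspeckles assemble. Meg3 and Rian are transcribed from the maternal chromosome of the imprinted Dlk1-Dio3 cluster, where Rian also hosts small RNAs: RefSeq (GRCm38.p6) places 11 snoRNA genes and 3 microRNA hairpins inside it, and 1 hairpin inside Meg3. H19 is the maternally expressed partner of Igf2. Gas5 hosts snoRNAs in its introns (8 snoRNA genes in RefSeq), and its spliced RNA carries a 5' terminal oligopyrimidine start like the messengers of ribosomal proteins and is degraded when translated. Lncpint is a p53-induced RNA linked to the Polycomb repressive complex 2, and Miat (also called Gomafu) is a nuclear RNA best known from neurons.

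RefSeq (GRCm38.p6) holds promoter windows, 250 bases before to 50 bases after a start, for 6 of the 8 members; Neat1 and H19 have none in that table. The windows of the genes whose groups separated most, or whose probe sets disagreed most, are shown for comparison of their starts. Capitals mark matches, on either strand, to 6 short motifs: the cAMP response element TGACGTCA, the AP-1 motif TGANTCA, the GC box GGGCGG, the E-box CACGTG, the TATA box TATAAA and the CCAAT box.
Malat1 (chr19:5802623-5802922, minus strand): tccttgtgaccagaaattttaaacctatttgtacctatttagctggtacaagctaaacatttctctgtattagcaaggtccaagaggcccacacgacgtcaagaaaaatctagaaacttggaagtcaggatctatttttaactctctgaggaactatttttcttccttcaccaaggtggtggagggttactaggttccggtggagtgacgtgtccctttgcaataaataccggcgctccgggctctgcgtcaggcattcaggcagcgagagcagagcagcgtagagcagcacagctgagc
Lncpint (chr6:31218425-31218724, minus strand): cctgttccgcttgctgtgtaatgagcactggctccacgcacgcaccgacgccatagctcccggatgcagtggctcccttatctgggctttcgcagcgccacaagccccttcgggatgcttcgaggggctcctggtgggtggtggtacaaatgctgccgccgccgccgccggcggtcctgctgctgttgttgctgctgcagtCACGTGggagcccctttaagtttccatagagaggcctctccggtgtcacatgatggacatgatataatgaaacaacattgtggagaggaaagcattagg
Meg3 (chr12:109540746-109541045, plus strand): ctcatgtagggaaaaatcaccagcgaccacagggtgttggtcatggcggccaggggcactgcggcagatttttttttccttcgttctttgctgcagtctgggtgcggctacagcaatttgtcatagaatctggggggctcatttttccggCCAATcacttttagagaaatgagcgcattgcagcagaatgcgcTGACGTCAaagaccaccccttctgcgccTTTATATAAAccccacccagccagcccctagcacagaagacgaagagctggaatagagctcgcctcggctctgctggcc
Rian (chr12:109603695-109603994, plus strand): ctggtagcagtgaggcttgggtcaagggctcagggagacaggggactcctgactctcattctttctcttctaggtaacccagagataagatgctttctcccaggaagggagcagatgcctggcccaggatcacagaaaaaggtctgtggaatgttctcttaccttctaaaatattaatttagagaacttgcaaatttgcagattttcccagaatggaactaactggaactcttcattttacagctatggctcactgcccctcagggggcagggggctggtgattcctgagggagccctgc
Gas5 (chr1:161034916-161035215, plus strand): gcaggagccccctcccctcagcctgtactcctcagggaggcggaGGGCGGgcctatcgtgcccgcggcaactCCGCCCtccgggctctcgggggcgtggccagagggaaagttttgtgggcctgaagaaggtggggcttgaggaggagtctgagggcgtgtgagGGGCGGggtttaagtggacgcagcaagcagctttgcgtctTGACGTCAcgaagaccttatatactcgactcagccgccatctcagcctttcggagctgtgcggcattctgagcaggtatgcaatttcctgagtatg

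The windows differed in base composition as much as in motifs. The Rian window held 0 CpG dinucleotides, against a median of 7 over all 32851 windows, and 0 matches to the 6 motifs. The Malat1 window held 10 CpGs and likewise 0 matches. The Meg3 window shown carried TGACGTCA at -57 to -50, where position -1 is the base before the start. It also carried CCAAT at -100 to -96 and overlapping TATAAA matches on both strands between -29 and -20. A second Meg3 window, not shown, held 1 CpG and no match to the motifs. The Gas5 window shown carried TGACGTCA at -46 to -39, and 1.79% of all windows hold that motif at any position. Lncpint had CACGTG at -49 to -44, a motif found in 7.15% of windows. The Gas5 start reads CTTTC, a C followed by 4 pyrimidines as in oligopyrimidine messengers, a start seen in 2.51% of windows. The Miat start, CCCTT, is of the same kind, while the other Gas5 start in the table reads GAGCT and is not. The shares of the other motifs were 7.81% for TGANTCA, 35.7% for GGGCGG, 13.6% for TATAAA and 37.4% for CCAAT. A match of letters does not show binding.

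The libraries differed in more than their labels, and these measures stand beside the results below. As a check of the labels, Mapt was at 1.43, 1.32 and 5.55 under the positive label and at 1.44, 1.64 and 1.38 under the negative label. This was the probe set of highest mean among 4 for Mapt, whose differences between labels ran from 0.06 to 1.28. It went against the label in positive replicates 1 and 2. Probe sets for TrpnX, a bacterial transcript that was not added, read 1.00 to 1.48. All directions below therefore refer to the labels. The 15 measured pan-neuronal markers averaged 2.97, 3.12 and 6.38 against 3.11, 3.47 and 3.71, and Rbfox3, which encodes the neuronal nuclear antigen NeuN, was at 4.01 in positive replicate 3 and at 1.11 to 1.67 in the other libraries. The 11 enteric glia markers averaged 6.70, 6.37 and 8.44 against 4.42, 5.96 and 5.56, and the 11 macrophage markers 5.97, 2.98 and 1.94 against 7.73, 7.88 and 6.22. Added poly-A spike transcripts, which are mixed into the RNA before labelling, averaged 8.88, 5.38 and 6.59 against 9.67, 6.20 and 4.49, highest in the libraries numbered 1. The 18S ribosomal RNA probe sets averaged 9.51, 9.55 and 9.63 against 11.7, 6.38 and 9.21, and the Gapdh 3'-minus-5' log2 signal, a sign of RNA integrity, was 1.29, 1.06 and 0.97 against 1.00, 2.47 and 0.77. Negative replicate 1 had the fewest probe sets above a value of 6, at 6182, against 7135 to 7621 in the other libraries.

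**Figure D1:**
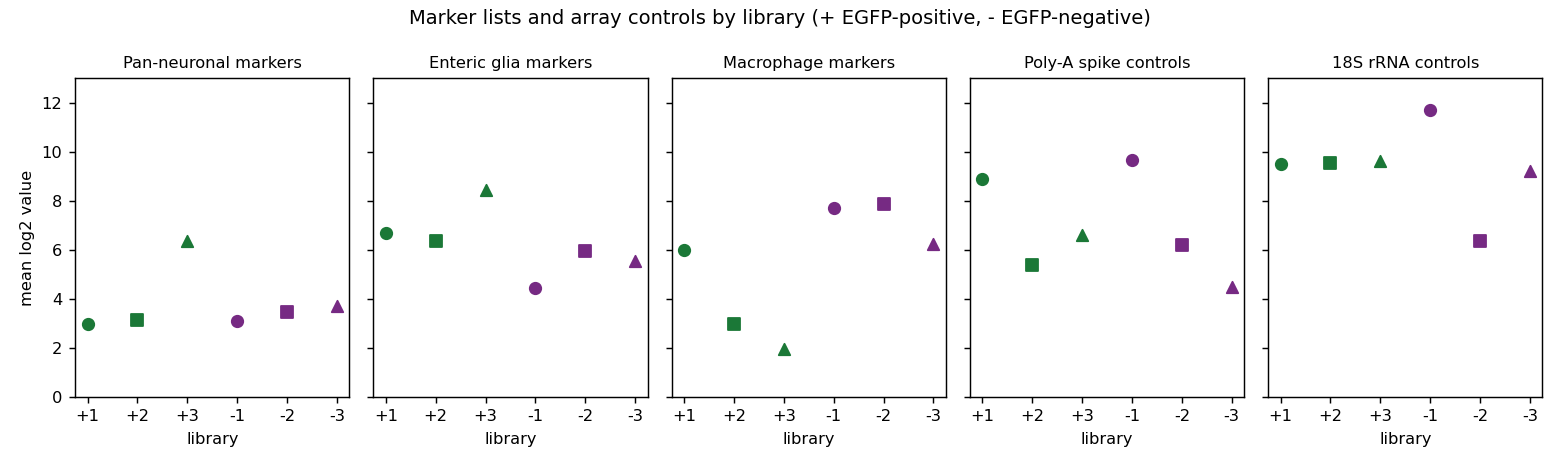
Mean deposited log2 value (vertical axis) of 3 marker lists and 2 sets of array controls in each library (horizontal axis; + labelled EGFP-positive, green; - labelled EGFP-negative, purple; the number is the replicate). Pan-neuronal markers reached 6.38 in positive replicate 3 only, and the poly-A spike controls were highest in the libraries numbered 1, at 8.88 and 9.67.

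Most of the noncoding RNA probe sets read higher in the libraries labelled EGFP-positive, and Gas5 read lower. The log2 difference, positive minus negative, was above 0 in 21 of 31 probe sets and below 0 in 10, with a median of 0.73 against 0.00 for all 34945 probe sets. In 7 probe sets of Malat1, Meg3, Lncpint and Rian (22.6%) all 3 positive libraries lay above all 3 negative ones, as in 4.90% of all probe sets. In 2 probe sets of Gas5 (6.45%) they lay below, as in 4.96% of all; among probe sets with a mean of at least 4 the shares were 5.57% above and 5.43% below. Within the same-numbered pairs, 13 member probe sets (41.9%) were higher in 3 of 3 pairs, against 14.4% of all probe sets and 16.7% of those with a mean of at least 4, and 3 (9.68%) were lower in 3 of 3, against 16.0%. The excess without overlap depended on the scaling. With arrays centred on ribosomal protein genes, 9 of the 31 lay above without overlap, beside 12450 of all 34945 probe sets. The members' share was then below that of all probe sets. Probe sets of a gene share its transcript, and some share the source sequence they were designed on. The counts here are therefore not counts of independent RNAs. In limma's test over all probe sets, 0 passed a Benjamini-Hochberg adjusted p of 0.05 (0.00%), and 0 of the 31 members did. At an unadjusted p under 0.05 there were 1945 probe sets (5.57%) and 7 members. Whether a library held fewer cells of a type or less RNA per cell cannot be told apart in such pools.

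**Figure D2:**
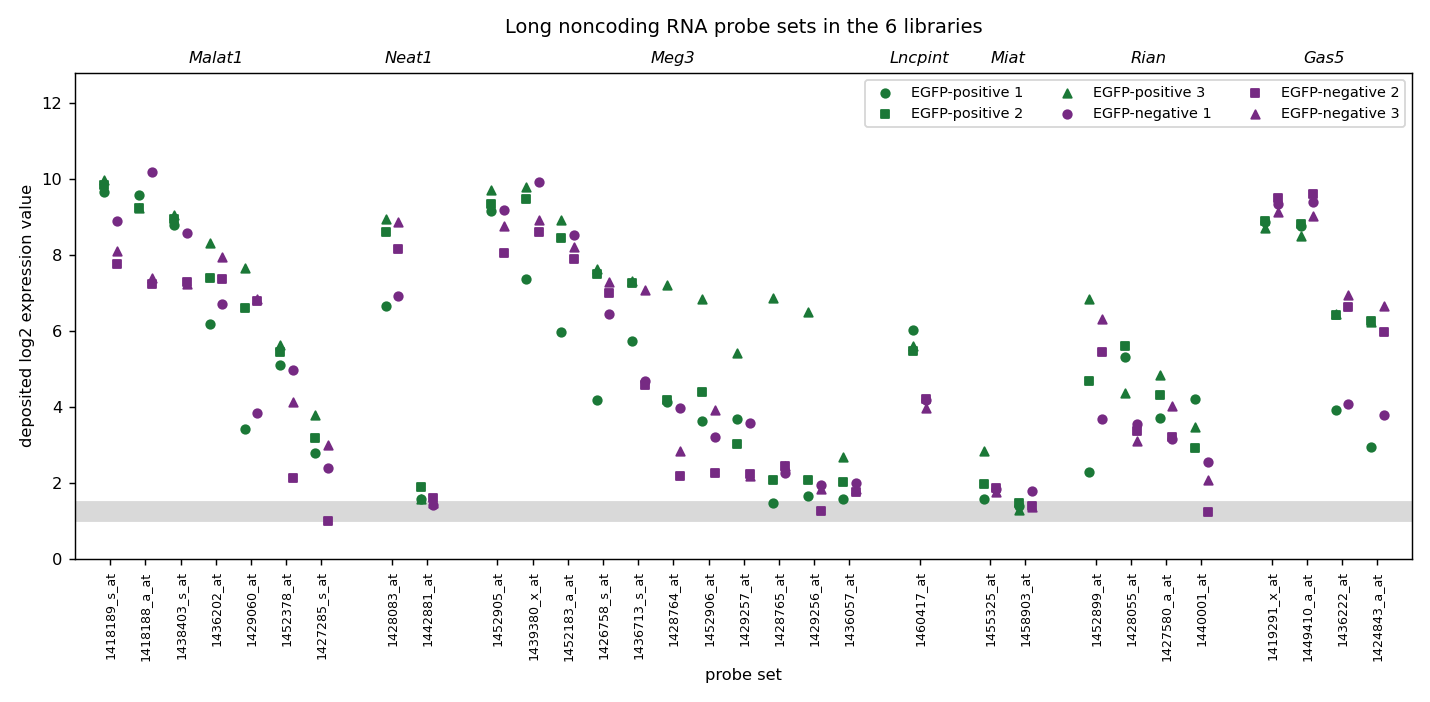
Deposited log2 value (vertical axis) of each of the 31 probe sets (horizontal axis, grouped by gene) in the libraries labelled EGFP-positive (green) and EGFP-negative (purple), with circles, squares and triangles for replicates 1, 2 and 3; the grey band is the TrpnX background of 1.00 to 1.48. Lncpint and 3 Malat1 probe sets show groups that do not overlap, while several Meg3 probe sets stand out in positive replicate 3.

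Malat1 split into probe sets that followed the label and probe sets that followed the replicate number. The probe set with the highest mean (1418189_s_at) read 9.65, 9.85 and 9.97 under the EGFP-positive label and 8.90, 7.77 and 8.10 under the EGFP-negative label. All positive values lay above all negative ones, 9.82 ± 0.16 against 8.26 ± 0.58 (SD, n = 3 each), a log2 difference of 1.57 (SE 0.31) that stayed between 1.32 and 1.89 with any 1 library left out. A second probe set (1438403_s_at) read 8.78, 8.94 and 9.05 against 8.57, 7.30 and 7.23, again without overlap, with a difference of 1.22 (SE 0.38). The third without overlap (1452378_at) read 5.10, 5.44 and 5.62 against 4.97, 2.12 and 4.12, so that its gap rested on positive replicate 1 standing only 0.13 above negative replicate 1. Its difference of 1.65 (SE 0.73) was 0.84 without negative replicate 2. In all of these the same-numbered pair 1 had the smallest difference.

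Another Malat1 probe set built on the same source sequence as the brightest (1418188_a_at) did not separate the groups. It read 9.59, 9.24 and 9.24 against 10.18, 7.23 and 7.41, where negative replicate 1 held the highest of the 6 values and the other negative libraries the lowest. The difference of 1.08 (SE 0.82) was 2.04 without negative replicate 1 and 0.56 without negative replicate 2. That library also had the highest 18S ribosomal RNA signal (11.7), and the part of this in the Malat1 value was not tested. In 4 of the 7 Malat1 probe sets negative replicate 2 read lowest, the library with the lowest 18S signal (6.38) and the largest Gapdh 3'-minus-5' signal (2.47), whose part was not tested either. Over all members negative replicate 2 was lowest in 10 of 31 probe sets (32.3%), against 13.4% of all probe sets. The probe set 1427285_s_at read 2.78, 3.17 and 3.78 against 2.39, 1.00 and 2.99, which puts negative replicate 2 at background. Without that library its difference went from 1.11 to 0.55.

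The remaining Malat1 probe sets were low in both libraries numbered 1, whatever their label. The first (1429060_at) read 3.42, 6.61 and 7.67 in the positive libraries and 3.83, 6.79 and 6.84 in the negative ones, with a difference between labels of 0.07 (SE 1.37). The other (1436202_at) read 6.17, 7.41 and 8.33 against 6.71, 7.37 and 7.95, with a difference of -0.04 (SE 0.61). Neither sign was stable: 1429060_at turned to -0.04 with quantile normalisation added, and 1436202_at turned to 0.29 when arrays were centred on ribosomal protein genes. These probe sets therefore gave a difference in replicate number of 3.35 and 1.32 (libraries numbered 2 and 3 minus those numbered 1) and none between labels beyond their spread.

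Neat1, the paraspeckle scaffold, did not separate the labels on the deposited scale. Its brighter probe set (1428083_at) read 6.67, 8.60 and 8.94 under the EGFP-positive label and 6.92, 8.16 and 8.87 under the EGFP-negative label. The groups covered nearly the same range, 8.07 ± 1.22 against 7.98 ± 0.99 (SD, n = 3), and the difference was 0.09 (SE 0.77). Both libraries numbered 1 lay below the other 4 by 1.85 on average, and the same libraries held the highest poly-A spike signal, whose part was not tested. The second probe set (1442881_at) stayed between 1.42 and 1.89, at or just above background. With ribosomal centring the groups of this low probe set did not overlap. The difference of 1428083_at was then 0.42 with overlapping groups, beside a median of 0.33 for all 34945 probe sets. The sign of the brighter probe set turned without positive replicate 2, without positive replicate 3 (-0.35) and without negative replicate 1 (-0.44).

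**Figure D3:**
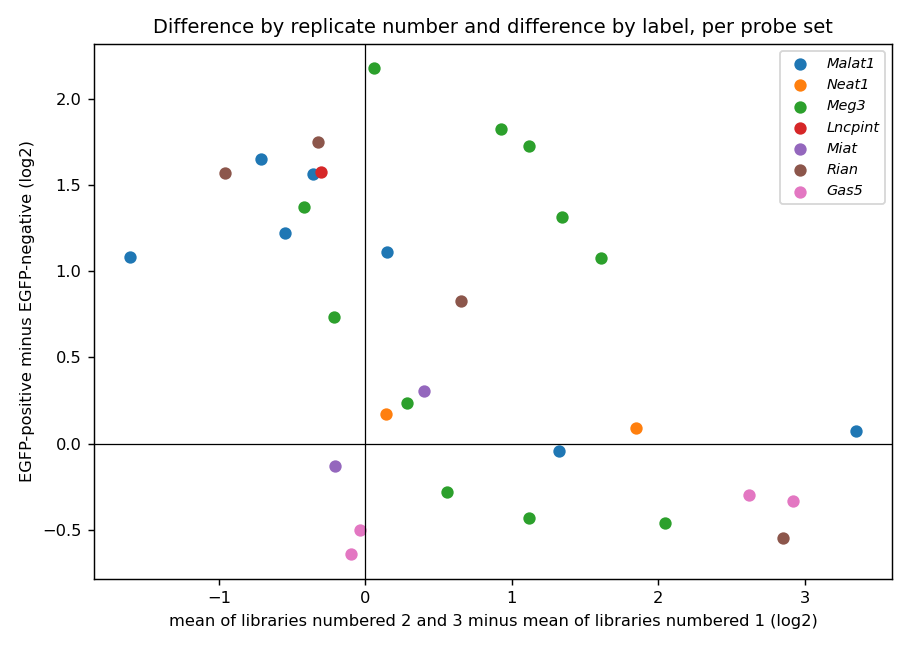
For each probe set (points, coloured by gene), the mean of the libraries numbered 2 and 3 minus the mean of those numbered 1 (horizontal axis, log2) against the difference EGFP-positive minus EGFP-negative (vertical axis, log2). Lncpint lies at 1.58 near the vertical line, while 1 Malat1, 1 Rian and 2 Gas5 points lie far right, at 2.62 to 3.35, with a label difference between -0.55 and 0.07; the sign of that Malat1 point, and of 1 of the Gas5 points, turns with another scaling.

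Low values in both libraries numbered 1 recurred across genes. They held in 7 of 31 member probe sets (22.6%), from Malat1, Neat1, Meg3, Rian and Gas5, against 15.4% of all probe sets and 25.8% of probe sets with a mean of at least 4. The members' share lies between these, so it is not a result about the members. Without both libraries numbered 1, a setting added after the data were seen, 20 of the 31 probe sets (64.5%) were higher in both remaining positive libraries than in both negative ones, against 15.3% of all probe sets, and 3 (9.68%) were lower, against 18.7%.

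Meg3, the imprinted RNA with the most probe sets, was highest in positive replicate 3 in 10 of its 11 probe sets. Over all members that library was highest in 20 of 31 (64.5%), against 19.9% of all probe sets. It is also the library in which pan-neuronal markers averaged 6.38, against 2.97 to 3.71 elsewhere, and glia markers 8.44, and the part of neurons or glia in the Meg3 values was not tested. The probe set 1429256_at read 1.64, 2.07 and 6.49 against 1.94, 1.25 and 1.82, and 1428765_at read 1.45, 2.07 and 6.87 against 2.25, 2.45 and 2.45. In these the other 5 libraries lay close to background, and without positive replicate 3 the differences of 1.73 and 1.08 fell to 0.18 and -0.63.

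Other Meg3 probe sets were above background in every library. The brightest (1452905_at) read 9.17, 9.33 and 9.72 in the positive libraries and 9.19, 8.04 and 8.78 in the negative ones, with a difference of 0.73 (SE 0.33), or 0.42 without negative replicate 2. Positive replicate 1 and negative replicate 1 were level there, which alone kept the groups from separating on the deposited scale. With ribosomal centring its groups did not overlap, and the difference was 1.07. The 1 Meg3 probe set without overlap on the deposited scale was 1428764_at. It read 4.13, 4.18 and 7.22 against 3.96, 2.19 and 2.85. Its difference was 2.18 (SE 0.97), or 1.16 without positive replicate 3. These probe sets and 1428765_at were designed on the same source sequence and still differed in pattern.

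A further 3 Meg3 probe sets, of which 1452183_a_at and 1426758_s_at share a source sequence, were instead lowest in positive replicate 1. The probe set 1452183_a_at read 5.98, 8.44 and 8.92 against 8.52, 7.90 and 8.20, and 1426758_s_at read 4.19, 7.51 and 7.64 against 6.44, 6.99 and 7.29. The probe set 1439380_x_at, whose suffix marks probes that can match other sequences, read 7.36, 9.48 and 9.79 against 9.93, 8.62 and 8.93. All 3 had a negative difference (-0.43, -0.46 and -0.28), while their pairs numbered 2 and 3 were higher in the library labelled EGFP-positive, and without positive replicate 1 the differences were 0.47, 0.67 and 0.48. The sign of 1439380_x_at also turned with ribosomal centring (0.05). The remaining 4 Meg3 probe sets had differences of 0.23 to 1.83, the largest in 1452906_at at 3.63, 4.38 and 6.85 against 3.22, 2.25 and 3.92. Without positive replicate 3 the differences of 1452906_at, 1429257_at and 1436057_at went from 1.83, 1.38 and 0.23 to 0.88, 0.69 and -0.06, and without negative replicate 3 that of 1436713_s_at went from 1.32 to 2.13.

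**Figure D4:**
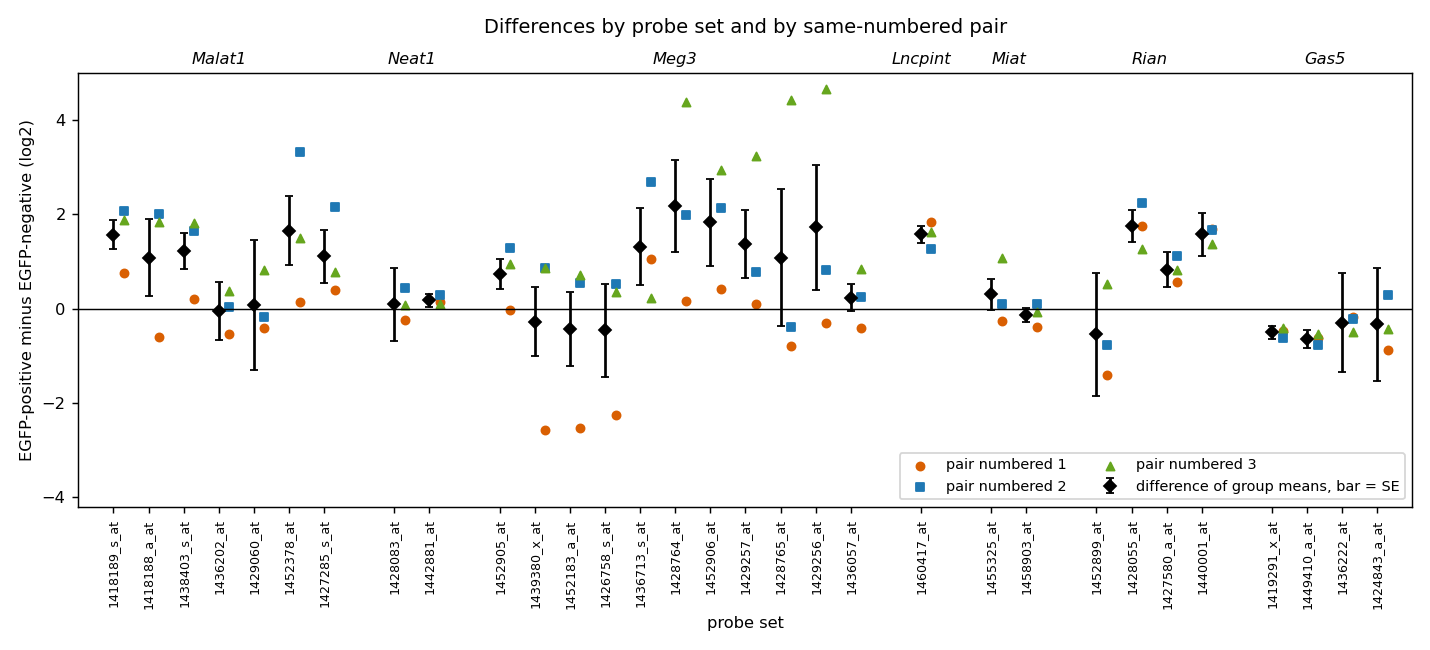
Log2 difference, EGFP-positive minus EGFP-negative (vertical axis), of each probe set (horizontal axis, grouped by gene): black diamonds with SE bars give the difference of group means (n = 3 each), coloured symbols the same-numbered pairs. Lncpint (1.58) and 3 of the 4 Rian probe sets lie above 0 in every pair and the 2 brightest Gas5 probe sets below 0 on the deposited scale; with ribosomal centring pair 3 of Gas5 1419291_x_at turns to 0.02, while in the Meg3 probe sets 1452183_a_at, 1426758_s_at and 1439380_x_at pair 1 stands at -2.54, -2.25 and -2.57.

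Rian, the neighbour of Meg3 in the imprinted cluster, was higher in the libraries labelled EGFP-positive in 3 of its 4 probe sets. The probe set 1428055_at read 5.31, 5.61 and 4.37 against 3.56, 3.37 and 3.10. All 3 positive values exceeded all negative ones, 5.10 ± 0.65 against 3.35 ± 0.23 (SD, n = 3), a difference of 1.75 (SE 0.35) that stayed between 1.49 and 2.12 with any library left out. Here positive replicate 3, the library richest in neuronal markers, held the lowest of the positive values, and the part of neurons in these values was not tested. The probe set 1440001_at read 4.22, 2.91 and 3.46 against 2.54, 1.24 and 2.08, without overlap, with a difference of 1.57 (SE 0.46), and negative replicate 2 was below the highest TrpnX value. The probe set 1427580_a_at read 3.71, 4.31 and 4.83 against 3.15, 3.20 and 4.02, higher in 3 of 3 pairs with overlapping groups. The fourth (1452899_at) followed the replicate number, at 2.27, 4.68 and 6.84 against 3.67, 5.45 and 6.32, with a difference of -0.55 (SE 1.30) that ran from -1.67 without positive replicate 3 to 0.61 without positive replicate 1.

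The protein-coding and other transcripts of the same cluster were low. Dlk1, the paternally expressed Notch-like ligand, stayed between 1.11 and 1.61, Dio3os between 1.68 and 2.28, and Mirg, a further maternal noncoding RNA, between 1.87 and 2.61. These 3 were the measured members of a list of 6. Dio3os and Mirg lay above the highest TrpnX value in all 6 libraries, and the differences of Dlk1, Dio3os and Mirg were 0.08 (SE 0.16), -0.13 (SE 0.18) and 0.28 (SE 0.18). The sign of Dio3os turned with ribosomal centring, and a second Dlk1 probe set gave -0.22.

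Lncpint separated the labels in its only probe set. This probe set (1460417_at) read 6.03, 5.47 and 5.59 under the EGFP-positive label and 4.19, 4.20 and 3.97 under the EGFP-negative label. The groups were 5.70 ± 0.30 and 4.12 ± 0.13 (SD, n = 3), more than 1 unit apart at their nearest, and the log2 difference was 1.58 (SE 0.18). Pairs 1, 2 and 3 differed by 1.84, 1.27 and 1.62, and leaving out any library gave 1.41 to 1.69. Positive replicate 1, with the lowest pan-neuronal mean of the 6, held its highest value, and the part of neurons in the Lncpint values was not tested. The macrophage marker mean was lower in every positive library than in every negative one, at most 5.97 against at least 6.22, and the glia mean higher, at least 6.37 against at most 5.96. Lymphocyte markers (8 measured) averaged 2.22, 1.27 and 1.21 against 3.11, 5.00 and 5.73. These 3 lists separated the labels in the same way beside Malat1, Rian and Gas5, and their part was not tested. With 1 probe set, no second measurement of the gene was at hand.

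The p53 targets and Polycomb subunits linked to Lncpint moved little on the deposited scale. Of 12 measured genes of the p53 pathway, 0 had groups that did not overlap, against 3.07% higher and 6.04% lower of all genes. The median difference was 0.07 against -0.02 for all 18193 genes with 1 probe set each. Among genes with a mean of at least 4 the ends of the list were Zmat3, a p53-induced RNA-binding protein, with a difference of 0.48 (SE 0.36), and Fas, a death receptor, with -0.24 (SE 0.29), which became 0.10 with ribosomal centring, where 12 of the 12 lay above 0. Of 9 subunits and partners of Polycomb repressive complex 2, 0 separated the groups either, with a median of 0.10. Their ends by the same minimum were Mtf2, an accessory subunit, at 0.34 (SE 0.33) and Eed, a core subunit, at -0.05 (SE 0.34), the latter turning sign with ribosomal centring, which adds 0.33 to every difference and puts 9 of the 9 above 0. Other probe sets of both genes had the opposite sign (down to -0.02 for Mtf2, up to 0.03 for Eed). With ribosomal centring Ezh1, Suz12, Rbbp4, Mtf2 and Phf19 separated the groups, as did Trp53inp1 of the p53 list. That centring also raised the count over all 34945 probe sets from 1712 to 12450. None of these genes passed in limma.

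Gas5 was the only member gene with all its probe sets lower in the libraries labelled EGFP-positive on the deposited scale; with ribosomal centring 1436222_at turned to 0.04. The probe set 1449410_a_at read 8.78, 8.82 and 8.50 against 9.39, 9.60 and 9.03. No values overlapped, 8.70 ± 0.17 against 9.34 ± 0.29 (SD, n = 3), and the difference was -0.64 (SE 0.19). The probe set 1419291_x_at read 8.86, 8.90 and 8.72 against 9.34, 9.51 and 9.14, also without overlap, with a difference of -0.50 (SE 0.13). With ribosomal centring, which adds 0.33 to every difference, these became -0.31 and -0.17, and the groups of 1419291_x_at then overlapped. The other probe sets were low in both libraries numbered 1: 1436222_at read 3.91, 6.41 and 6.45 against 4.08, 6.62 and 6.96. The last (1424843_a_at) read 2.93, 6.27 and 6.23 against 3.80, 5.98 and 6.66. Their label differences of -0.30 and -0.33 stood beside steps of 2.62 and 2.92 between replicate numbers, which a comparison within pairs leaves out. By pair 1436222_at differed by -0.18, -0.21 and -0.50, or by 0.15, 0.02 and -0.07 with ribosomal centring. By pair 1424843_a_at differed by -0.87, 0.29 and -0.43. With the number as a block the SEs were 0.13 and 0.26.

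Other snoRNA host genes and oligopyrimidine messengers leaned the same way as Gas5, and the sign of the lean, read against 0, depended on the scaling. Of 11 measured snoRNA hosts, 9 had a difference below 0, with a median of -0.39 against -0.02 for all genes. In 8 of the 11 the positive library was lower in 3 of 3 pairs, against 18.2% of all genes, and in 3 (Snhg1, Snhg8 and Zfas1) the groups did not overlap, against 6.04%. Snhg8 read 7.35, 7.13 and 7.22 against 7.68, 7.52 and 7.50, a difference that vanished with ribosomal centring, while Snhg5, with the lowest difference among hosts with a mean of at least 4 (-0.60, SE 0.64), read 4.69, 6.71 and 6.63 against 5.91, 6.91 and 7.02. Of 12 measured oligopyrimidine messengers, which encode ribosomal and translation factors, all 12 had a difference below 0, with a median of -0.28, from -0.50 in Rps6, whose second probe set gave 0.02, to -0.06 in Eif4b. With arrays centred on ribosomal protein genes the medians became -0.06 for snoRNA hosts and 0.05 for the messengers. Then 7 of 11 hosts and 5 of 12 messengers lay below 0. The sign of the messengers' median turned, though several of those messengers encode ribosomal proteins themselves. That centring adds 0.33 to every difference, and the median over all 34945 probe sets became 0.33, so both list medians still lay below it. None passed in limma.

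Factors of nonsense-mediated decay, which degrades spliced Gas5, did not differ between labels beyond their spread. The 7 measured genes had a median difference of -0.01. With ribosomal centring it was 0.32, beside 0.33 for all 34945 probe sets. On the deposited scale 0 had groups that did not overlap, against 3.07% higher and 6.04% lower of all genes. Smg1, the kinase of the pathway, read 5.07, 6.72 and 6.59 against 5.83, 6.74 and 6.86, with its 4 probe sets running from -0.67 to 1.26, and Smg5 had a difference of 0.11 (SE 0.31). In 5 of the 7 both libraries numbered 1 were the lowest, against 17.1% of all genes.

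Miat was close to background in every library except positive replicate 3. Its better probe set (1455325_at) read 1.58, 1.96 and 2.83 against 1.83, 1.86 and 1.76. The highest value lay in the library with high neuronal markers, and without it the difference of 0.30 (SE 0.33) became -0.05. The second probe set (1458903_at) stayed between 1.29 and 1.79, where no difference can be read. Of the splicing factors that bind Miat, Sf1 read 10.39, 9.99 and 10.25 against 10.03, 9.86 and 9.98, a difference of 0.25 (SE 0.15), and Srsf1 had 0.07 (SE 0.33). The 5 probe sets of Sf1 ran from -0.38 to 0.25, and the 7 of Srsf1 from -0.01 to 0.87.

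H19 itself was not analysed, and its partner genes gave no separation on the deposited scale. Igf2, the paternally expressed growth factor beside it, read 5.16, 4.69 and 3.89 against 3.68, 5.26 and 5.15, with the lowest values in positive replicate 3 and negative replicate 1. Its difference was -0.12 (SE 0.54), a sign that turned with ribosomal centring. Igf2r, the receptor that clears it and is itself imprinted, read 8.11, 8.22 and 7.80 against 7.70, 7.41 and 8.08, a difference of 0.31 (SE 0.22), while its second probe set gave -0.14. Of 7 measured genes of this axis 0 had groups that did not overlap on that scale, against 3.07% higher and 6.04% lower of all genes.

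Among 21 imprinted genes outside the Dlk1-Dio3 cluster, 10 had a difference above 0 and 11 below, with a median of -0.0013. The 1 of the 21 whose groups did not overlap, Usp29, lay at background in all 6 libraries. The shares over all genes were 3.07% higher and 6.04% lower. Peg3, a paternally expressed zinc finger gene, read 6.64, 7.45 and 9.27 against 5.20, 7.49 and 7.42, and Plagl1, a transcription factor of the imprinted gene network, read 8.19, 8.42 and 8.31 against 8.34, 8.89 and 9.20. The Plagl1 difference of -0.51 (SE 0.24) was lower in 3 of 3 pairs, and Peg3 (1.09, SE 0.92) had its highest value in positive replicate 3. With ribosomal centring 19 of the 21 lay above 0 and 2 below, with a median of 0.33, the same as that of all 34945 probe sets (0.33). Other probe sets of Plagl1 ran up to 0.05.

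The counts of speckle and paraspeckle proteins above and below 0 depended on the scaling. Ribosomal centring, which adds 0.33 to every difference, also moved the median over all 34945 probe sets to 0.33. Of 14 speckle proteins 6 had a difference above 0 and 8 below, with a median of -0.13, against 13 above, 1 below and a median of 0.20 with ribosomal centring. Son, the speckle scaffold, read 9.74, 9.49 and 9.93 against 8.49, 9.24 and 9.53, a difference of 0.63 (SE 0.30) that was the highest of its 7 probe sets (lowest -0.19), and Clk1, a kinase of splicing factors, had -0.33 (SE 0.76). Of 13 paraspeckle proteins 6 lay above 0 and 7 below, with a median of -0.03, against 12 above, 1 below and a median of 0.30 with that centring. Taf15, an RNA-binding protein of the FET family, read 5.73, 5.68 and 6.01 against 3.78, 2.51 and 4.97, without overlap and with a difference of 2.06 (SE 0.61), but its second probe set gave 0.16. Pspc1, a core paraspeckle protein, read 4.03, 5.67 and 5.32 against 5.05, 5.57 and 6.21. On the deposited scale groups did not overlap in 1 speckle gene each way (Srrm2 higher, Ddx39b lower) and in Taf15. The shares over all genes were 3.07% higher and 6.04% lower. With ribosomal centring the groups of Ddx39b overlapped, and Son and further paraspeckle genes were higher without overlap. So were 12450 of all 34945 probe sets. None of these genes passed in limma.

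**Figure D5:**
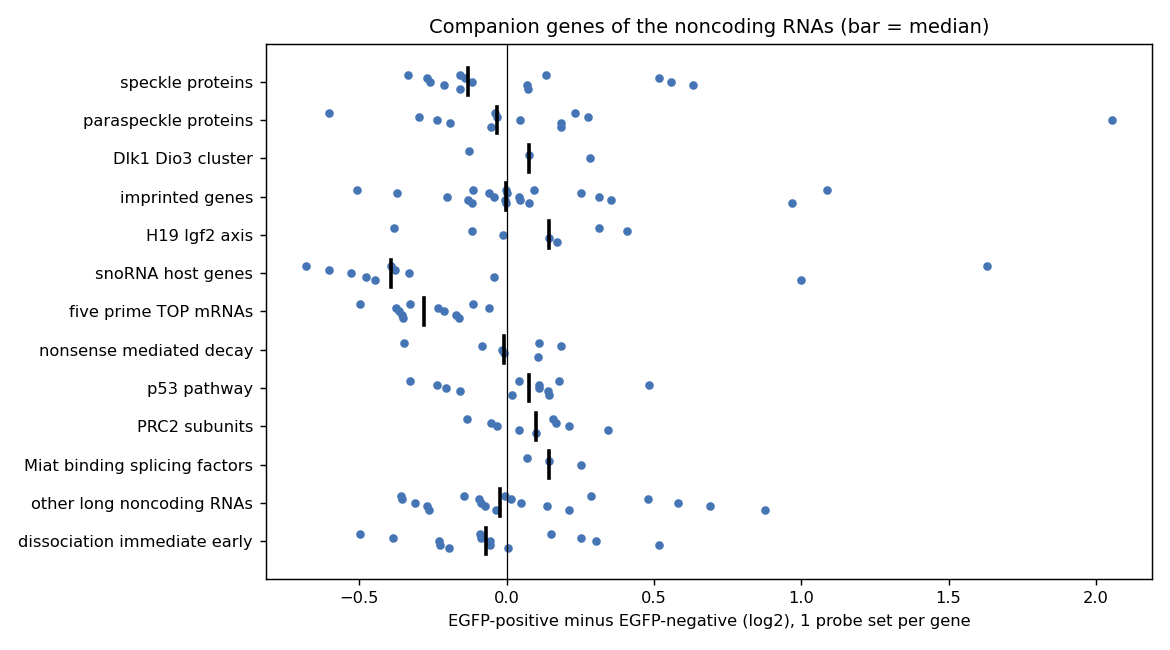
Log2 difference, EGFP-positive minus EGFP-negative, on the deposited scale (horizontal axis) for each measured gene (points, 1 probe set each) of the companion lists (rows), with bars at the medians. The snoRNA hosts and oligopyrimidine messengers have medians of -0.39 and -0.28. These become -0.06 and 0.05 with ribosomal centring, where the median over all probe sets is 0.33. The point at 2.06 is Taf15.

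Of 20 other long noncoding RNAs measured, 9 had a difference above 0 and 11 below on the deposited scale, with a median of -0.02. With ribosomal centring 18 lay above 0 and 2 below, and the median was 0.31, beside 0.33 for all 34945 probe sets. On the deposited scale 0 had groups that did not overlap, against 3.07% higher and 6.04% lower of all genes. Kcnq1ot1, the imprinted antisense RNA of the Kcnq1 locus, read 5.80, 6.37 and 6.39 against 4.46, 5.94 and 6.08, higher in 3 of 3 pairs. Xist, which coats the inactive X chromosome, read 9.17, 9.88 and 10.53 against 8.04, 9.85 and 9.94, again lowest in both libraries numbered 1, and its 3 probe sets differed by -0.05 to 1.96. At the other end Hoxa11os, antisense to a Hox gene, had a difference of -0.36 (SE 0.38). Immediate early genes, which rise when tissue is dissociated, averaged 9.02, 8.85 and 8.96 against 9.21, 8.97 and 8.78. Within that list Jun, a subunit of AP-1, had a difference of 0.52 (SE 0.40), and its second probe set gave 0.18. Zfp36, which destabilises messengers, had a difference of -0.50 (SE 0.21), with groups that did not overlap on the deposited scale. With ribosomal centring the Zfp36 difference was -0.17 and its groups overlapped.

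Genes with the profile most like each member were found by Pearson's r over the 6 libraries among 4567 genes with a mean of at least 6. With so few libraries many genes reach a high r, and the values are given as a description. Lncpint was most like Sdc4, a cell surface proteoglycan (r = 0.98), followed by Fyttd1 and Ift122 (r = 0.96 each), and 16 genes exceeded 0.9. Malat1 (1418189_s_at) was most like Srrm2, a speckle protein that read 9.96, 9.89 and 9.90 against 9.54, 9.18 and 9.47 (r = 0.96), then Card10 (0.94) and Wac (0.93). Meg3 (1452905_at) was also most like Wac (0.98), then Sema4b (0.96) and Fbln2 (0.94). Gas5 (1419291_x_at) was most like Commd4, Gm12338 and Trappc2l (all 0.99).

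For Neat1 and Rian the likeness was to the step between replicate numbers. Neat1 (1428083_at) was most like Trim34a, Tra2a and Top2b (all 0.99), and 255 genes exceeded 0.9. Rian, taken by its probe set of highest mean (1452899_at), was most like Ubp1, Zranb2 and Fbxo9 (all 0.99), with 167 genes above 0.9. Miat was most like Itch, Bex1 and Arpc1a (r = 0.99, 0.97 and 0.97), all highest in positive replicate 3. Between probe sets of the same gene r ran from -0.60 to 0.97 in Malat1, from -0.03 to 0.97 in Meg3, from -0.46 to 0.74 in Rian and from -0.08 to 0.99 in Gas5, so that which probe set stands for a gene decides its pattern here.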

How the data were processed

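Gene expression was measured in 6 array libraries, 3 per label. The deposited table holds log2 values made by the authors with RMA per the submitters' processing notes; its version and settings are not given in the sources used here. Columns did not share a distribution (upper quartiles 4.08 to 4.86), so how the arrays were scaled is uncertain. The number of arrays limits the precision.

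Probe sets were named from GEO's platform annotation: of 45101 probe sets 64 were controls, 34945 had 1 symbol, 932 several and 9160 none, and 0 symbols were updated through RefSeq. All 34945 were fitted with limma 3.58.1 in R 4.3.3 (lmFit, eBayes, two-sided, Benjamini-Hochberg adjusted p 0.05), with no added normalisation or filter; the SE of a difference is limma's moderated one. The fit was tested on simulated data, at the measured spread and at a smaller one. Recovery of the simulated differences was required only at the smaller spread, because the measured spread gives few calls. Companion and marker genes were each taken by their probe set of highest mean, fitted over 18193 genes. Lists are described by counts and medians beside those of all genes. Plots were made with matplotlib 3.10.9 (Python 3.11.15).

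The members and lists were chosen with earlier results of these data known. Genes were named by rule: every member probe set, the highest and lowest difference of each companion list among genes with a mean of at least 4, the measured Dlk1-Dio3 genes, Igf2, Xist, Mapt, and the 3 genes most like each member. Rbfox3, Srrm2 among speckle proteins, Ddx39b, Usp29, Snhg1, Zfas1 and the genes of the closing observations were named after their values were seen. Some listed genes were not analysed here.

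Both groups carry biological replicate numbers 1 to 3 in the labels. Deviations from the group means correlated at 0.37, 0.30 and 0.39 over all probe sets between libraries of the same number, and at -0.40 to -0.03 between others, so the numbers were taken as pairs and a fit with the number as a block was run beside the main one. Scalings, filters, array weights and each library left out were also tried.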

Additional observations from a re-analysis of the deposited data

How the results depend on the processing

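Over 17 alternatives, 0 of the member probe sets passed an adjusted p of 0.05 in limma in any, with 6 to 13 at an unadjusted p under 0.05 where probe sets were kept separate. Over all probe sets the count was 0 except for 2 with values raised to the highest TrpnX value (Vac14 and Mefv, both lower) and 2 without positive replicate 1 (Ccr2 and Fermt3, both lower), so it ran from 0 to 2 with a library left out. With the replicate number as a block, 0 probe sets passed (2997 at an unadjusted p under 0.05, against 1945 without the block), and the block changed no call. Member probe sets higher without overlap were 7 (1712 of 34945 over all probe sets), and 6 with quantile normalisation added (1807 over all). They were 7 to 16 with a library left out, where groups separate more easily over all probe sets too. The counts were 16 without positive replicate 1 (3335 over all) and 11 without negative replicate 3 (3659 over all). They were 20 without both libraries numbered 1 (5357 over all) and 2 with 1 probe set per gene (559 of 18193 over all). Member probe sets lower without overlap were 2, and 2 to 3 with a library left out (2821 to 4441 over all). They were 1 with ribosomal centring and 1 with 1 probe set per gene (1099 of 18193 over all). The higher-to-lower split of members was 9 to 1 with ribosomal centring, against 7 to 2, and over all probe sets 12450 to 302, against 1712 to 1732; median centring gave 1299 to 2934. Of the 31 differences 18 kept their sign in every alternative run and 13 did not, among them Gas5 1436222_at and 1424843_a_at, Rian 1452899_at and Neat1 1428083_at. Of 499 member differences under an alternative, 493 moved by less than 1 SD (pooled within groups), a count that cannot show stability. A filter, the block or another variance model leaves a difference unchanged. Leaving 1 of 3 libraries out cannot move it by as much as 1 SD.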

Other observations

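Noncoding host and neural transcripts outside the members stood out in the same library as Meg3. Snhg11, a snoRNA host of neurons, read 1.89, 3.35 and 7.86 under the EGFP-positive label and 2.75, 2.15 and 3.31 under the EGFP-negative label. Snhg14, the host transcript of the imprinted Snrpn region, read 2.35, 2.52 and 4.35 against 2.59, 1.53 and 2.09. Sox2ot, which overlaps the stem cell and glial gene Sox2, read 1.46, 1.36 and 3.80 against 1.40, 1.29 and 1.29. Mest, a paternally expressed imprinted gene, read 5.98, 5.78 and 7.88 against 5.26, 5.83 and 5.65. In each of these the highest of the 6 values lay in positive replicate 3, where Mapt read 5.55. These genes were picked after their values were seen, and none passed in limma.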
